A study of Mus musculus with 8 samples.

Results

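The genes of prostaglandin E2 (PGE2) synthesis, breakdown and reception were followed in mouse distal colon. They were chosen by name: the inducible cyclooxygenase Ptgs2, the PGE synthases Ptges, Ptges2 and Ptges3, the prostaglandin transporter Slco2a1, the dehydrogenase Hpgd and the EP receptors Ptger1, Ptger2, Ptger3 and Ptger4. These are 10 of the 52143 genes for which values were deposited, and each was found. Bulk RNA of the colon was compared at baseline between 4 control samples (Villin1-Cre-ERT littermates) and 4 Siglec-XII samples (SIGLEC12-Villin1-Cre-ERT). Siglec-XII mice carried 1 floxed copy of human SIGLEC12 in the ROSA26 locus behind a CAG promoter and an EGFP stop cassette, and both groups carried a tamoxifen-inducible Cre driven by the Villin1 promoter, so that the cassette is removed in the intestinal epithelium and not in the other cells of the tissue. Mice of both groups were female and 8 weeks old at the first of 5 daily tamoxifen injections (10 mg/ml), and colon was taken on day 12, which is 7 days after the last injection. The comparison asks whether expression of Siglec-XII in the epithelium changed these genes before any carcinogen was given.

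PGE2 is made from arachidonic acid, which cyclooxygenases turn into PGH2 and PGE synthases then turn into PGE2. Slco2a1 brings the lipid back into cells, and Hpgd, 15-hydroxyprostaglandin dehydrogenase, oxidizes it to a form with little activity. In the colon PGE2 is known for its part in crypt repair, muscle tone, inflammation and tumor growth, loss of HPGD is common in human colorectal tumors, and the receptors differ in signal: EP2 (Ptger2) and EP4 (Ptger4) raise cAMP, EP3 (Ptger3) mostly lowers it, and EP1 (Ptger1) raises calcium.

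Values were deposited as log2(TPM + 1). TPM is a gene's share of a library after correction for transcript length, scaled to the same total in every sample. Levels can therefore be compared between genes, but an equal total does not by itself make samples comparable. TPM carries no depth, so the counting error behind low values is unknown. The design text speaks of 3 mice per condition whereas the labels list 4 samples per group, and the methods describe technical replicate libraries. P values therefore measure only the spread between these samples, some of which may be technical. Human SIGLEC12, EGFP and Cre have no row, and so the values give no check of which samples carried the transgene. All 8 epithelial markers (such as Krt8, a keratin, and Car1, a carbonic anhydrase of the colon) passed the filter on low values, and their summed level was 7960 to 11200 TPM in control and 8690 to 11300 TPM in Siglec-XII samples. Siglec-XII samples 3 and 4 stood apart from the rest: on the first principal component, which held 40.3% of the variance, they lay at 36.2 and 50.2, whereas Siglec-XII 1 and 2 lay at -4.8 and -6.66 and the controls between -29 and -6.18. The difference of each PGE2 gene and the median of each pathway list are therefore also given without these 2 libraries. The median gene was 0.15 lower in Siglec-XII on the log2 scale, and only 21.9% of the 13164 genes past the filter (1 TPM or more in no fewer than 4 of the 8 samples) had a difference above 0. This shift went with the 2 libraries: without Siglec-XII 3 and 4 the median difference over all genes was 0.00313. Some alternatives centre each sample on its median. As the sample medians differed by -0.21 (Siglec-XII minus control), that step takes this amount from every gene's difference alike.

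The PGE2 genes spanned a wide range of levels in this tissue. Hpgd was the most abundant at a mean of 189 TPM over the 8 samples (rank 678 of 52143 genes), followed by Ptges3 at 71.0, Ptges2 at 35.6 and Slco2a1 at 21.4 TPM, and the ranges of these 4 genes and of Ptger4 below them did not touch. Ptger4 (8.55 TPM) and Ptger3 (8.2 TPM) could not be put in order, as Ptger4 was the higher in 5 of 8 samples. Ptges followed at 3.98 TPM, below Ptger3 in 8 of 8 samples although their ranges overlapped. Ptger1 (0.251 TPM), Ptgs2 (0.128 TPM) and Ptger2 (0.0499 TPM) stayed under the filter in all samples, and neighbours among them overlapped. By group means the order was the same in both groups except that Ptger4 was above Ptger3 in controls and below it in Siglec-XII.

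**Figure D1:**
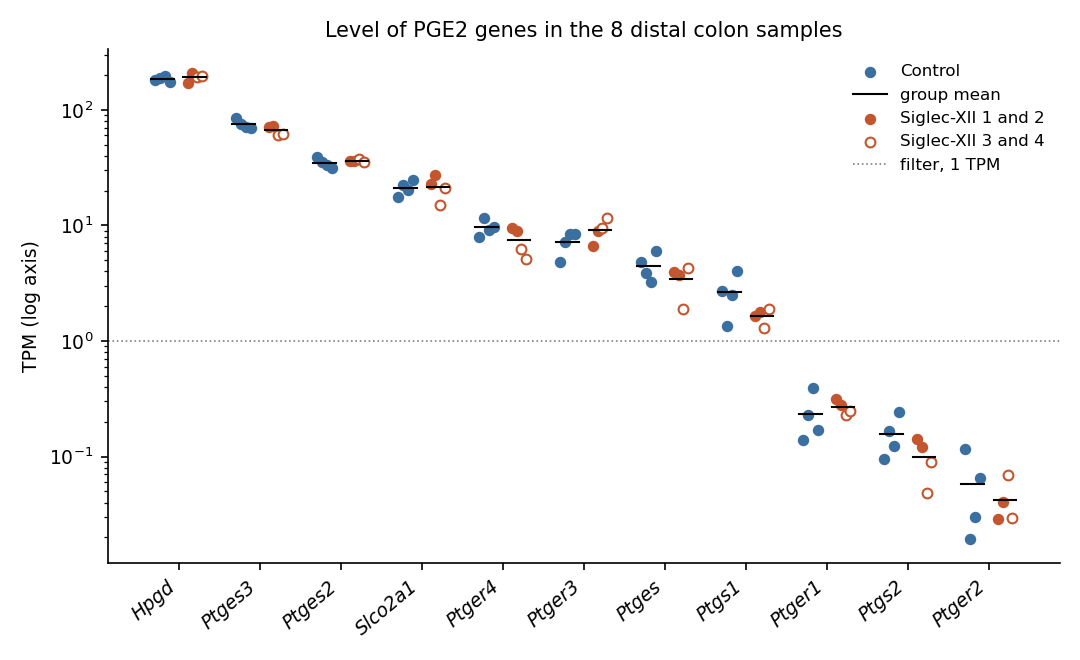
Level of each PGE2 gene, and of Ptgs1 for reference, in the 8 distal colon samples, in TPM on a log axis (1 point per sample, bar at the group mean, dotted line at the filter of 1 TPM). Hpgd lies at 171 to 210 TPM in all samples, and Ptger1, Ptgs2 and Ptger2 lie under the filter in both groups.

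Ptgs2 encodes cyclooxygenase 2, the enzyme that inflammatory signals, growth factors and serum induce. Its level was 0.0953, 0.166, 0.123 and 0.243 TPM in controls 1 to 4 and 0.141, 0.12, 0.0487 and 0.0891 TPM in Siglec-XII 1 to 4. Siglec-XII 1 and 2 lay inside the control range and Siglec-XII 3 and 4 lay under it, but every value was close to 0 (0.157 ± 0.0645 against 0.0996 ± 0.04 TPM, SD, n = 4 each). In bulk tissue, fewer cells of a type and less RNA per cell cannot be told apart. Fitted with no filter, the log2 difference was -0.07 (SE 0.046, limma adjusted p = 0.689). It was 0.14 when each sample was centred on its median, an alternative added after the data were seen. That step moves every gene alike, so the change of sign is not particular to Ptgs2. Without Siglec-XII 3 and 4 the difference of the means was -0.03. The constitutive cyclooxygenase, Ptgs1, was not among the chosen genes but supplies the same substrate. It was 8.14 to 28.7 times as abundant as Ptgs2 in controls and 11.8 to 26.7 times in Siglec-XII samples. Its level was 2.65 ± 1.08 TPM in controls and 1.66 ± 0.258 TPM in Siglec-XII (log2 difference -0.41, SE 0.22, limma adjusted p = 0.515), and without Siglec-XII 3 and 4 the difference was -0.37.

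The start of Ptgs2 is shown because it holds the letters for which the inducible gene is known, a cAMP response element core (TGACG, here read from the opposite strand) that overlaps an E box (CACGTG). These are the first 28 bases from the RefSeq start on GRCm38.p6, chr1:150100031-150100058, plus strand, with both motifs in capitals. That start is an annotated position, and where transcription begins in these samples was not measured.
Ptgs2 start: agagtcaccactaCGTCACGTGgagtcc
Of 32851 promoters in the RefSeq table, 3.49% held TGACG and 1.08% held CACGTG on either strand in the 50 bases after the start. A match of letters is a description and not evidence of binding, and the gene was at 0.0487 to 0.243 TPM in these samples.

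Among the PGE synthases, the enzymes that isomerize PGH2 to PGE2, Ptges3 and Ptges2 made up nearly all transcripts. Ptges3, a cytosolic synthase better known as the p23 cochaperone of Hsp90, was at 85.5, 75.2, 70.8 and 70.1 TPM in controls 1 to 4 and at 71.5, 73.0, 60.1 and 61.5 TPM in Siglec-XII 1 to 4. Siglec-XII 3 and 4 were the only samples under the control range. The log2 difference was -0.18 (SE 0.105, 95% interval -0.42 to 0.06, limma adjusted p = 0.515), close to that of the median gene, and it was 0.03 once each sample was centred on its median and -0.06 without Siglec-XII 3 and 4. A share of 20.3% of the 31-base windows in the transcripts of Ptges3 also occurs in Ptges3-ps, a processed pseudogene listed at 7.6 ± 3.81 TPM in controls and 9.29 ± 4.94 TPM in Siglec-XII, so reads of both could be divided between them. Summed over both rows, the level was 83.0 ± 3.73 against 75.8 ± 10.1 TPM.

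Ptges2, a membrane-associated synthase that is present without induction, varied little within groups, and least in Siglec-XII (log2 SD 0.14 in controls and 0.03 in Siglec-XII). Controls 1 to 4 had 39.4, 35.4, 33.2 and 31.5 TPM, and Siglec-XII 1 to 4 had 36.0, 35.9, 37.5 and 35.7 TPM, all inside the control range. Only 6.7% of the genes tested had a smaller SD within groups. The log2 difference was 0.06 (SE 0.0957, 95% interval -0.16 to 0.28, limma adjusted p = 0.762), and 0.05 without Siglec-XII 3 and 4. Its share of the summed synthase transcripts was 29.2% to 30.9% in controls (30.4% ± 0.802) and 31.9% to 37.7% in Siglec-XII samples (34.3% ± 2.71), so these shares did not overlap. With Ptges3-ps added to the sum, a change made after the values were seen, the shares were 26.7% to 30.0% and 28.1% to 34.0% and did overlap. These shares are a description and were not tested.

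Ptges encodes the inducible microsomal synthase that is usually coupled to cyclooxygenase 2. It was at 4.78, 3.85, 3.26 and 6.04 TPM in controls and at 3.93, 3.75, 1.88 and 4.32 TPM in Siglec-XII. Only Siglec-XII 3 lay outside the control range. The log2 difference was -0.31 (SE 0.234, 95% interval -0.84 to 0.22, limma adjusted p = 0.56), an interval that holds both no change and a fall to 0.56 of the control level on the TPM + 1 scale. It was -0.11 without Siglec-XII 3, -0.18 without control 4 and -0.16 without Siglec-XII 3 and 4, and -0.08 after quantile normalization and -0.1 with median centring. Ptges3 transcripts were 11.6 to 21.7 times as abundant as those of Ptges in controls and 14.2 to 31.9 times in Siglec-XII.

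On the side of removal, Slco2a1 carries PGE2 from the extracellular space into cells, where Hpgd can reach it. Slco2a1 was at 17.5, 22.4, 20.1 and 24.6 TPM in controls and at 23.0, 27.3, 15.0 and 21.2 TPM in Siglec-XII. The highest and the lowest of the 8 values were both Siglec-XII samples. The group difference was 0.01 (SE 0.183, 95% interval -0.4 to 0.43, limma adjusted p = 0.975), and its sign turned when control 1 (-0.07), control 3 (-0.01), Siglec-XII 1 (-0.02) or Siglec-XII 2 (-0.1) was left out. It was 0.25 without Siglec-XII 3 and 4.

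Hpgd was at 181, 187, 198 and 174 TPM in controls 1 to 4 and at 171, 210, 194 and 198 TPM in Siglec-XII 1 to 4. The groups overlapped, and both held their values within a narrow band, with only 7.78% of the genes tested showing a smaller SD within groups. The difference of 0.06 (SE 0.0887, limma adjusted p = 0.734) corresponds to a fold of 1.04, with a 95% interval of 0.909 to 1.2. Without Siglec-XII 3 and 4 the difference was 0.04. On the TPM scale, Hpgd held 54.7% ± 2.11 of all transcripts of the 10 genes in controls and 57.1% ± 2.91 in Siglec-XII (n = 4 each), and the summed level of the 10 genes was 325 to 344 TPM in controls and 322 to 368 TPM in Siglec-XII. Hpgd exceeded Ptgs2 by 715 to 1900 times in controls and by 1210 to 3980 times in Siglec-XII, and Ptgs1 by 43.5 to 138 times and by 103 to 149 times. The ratios to Ptgs2 are rough, since it was at 0.0487 to 0.243 TPM and its counting error is unknown. Transcripts for breakdown were therefore far more abundant than those for either cyclooxygenase in every sample, while enzyme activity and PGE2 itself were not measured.

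The 120 bases before the RefSeq start of Hpgd and of 3 receptor genes are shown because these genes hold the highest level, the lowest level and the opposed pair of the set. The motifs searched, on both strands, were the TATA box (letters TATAAA), the core of the cAMP response element (letters TGACG), the GC box (letters GGGCGG) and the E box (letters CACGTG), and matches are in capitals. The windows lie on GRCm38.p6, for Hpgd at chr8:56294432-56294551 (plus strand), for Ptger3 at chr3:157566756-157566875 (plus strand), for Ptger4 at chr15:5244188-5244307 (minus strand, written 5′ to 3′ for the gene) and for Ptger2 at chr14:44987991-44988110 (plus strand).
Hpgd promoter: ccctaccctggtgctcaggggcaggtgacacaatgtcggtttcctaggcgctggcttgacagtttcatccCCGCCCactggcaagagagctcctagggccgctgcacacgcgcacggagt
Ptger3 promoter: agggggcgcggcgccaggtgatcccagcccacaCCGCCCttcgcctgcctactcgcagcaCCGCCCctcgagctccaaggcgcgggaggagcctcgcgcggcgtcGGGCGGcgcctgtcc
Ptger4 promoter: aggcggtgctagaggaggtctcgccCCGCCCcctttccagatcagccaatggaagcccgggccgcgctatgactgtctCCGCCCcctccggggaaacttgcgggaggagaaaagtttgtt
Ptger2 promoter: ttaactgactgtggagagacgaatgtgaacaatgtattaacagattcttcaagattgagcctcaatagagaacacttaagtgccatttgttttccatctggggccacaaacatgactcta
GC boxes stand in the windows of Hpgd, Ptger3 and Ptger4, and GGGCGG occurs in 26.5% of all 32851 promoter windows of this length (the TATA box in 6.34%, the cAMP response element core in 11.7% and the E box in 3.66%). The Ptger2 window holds none of these letter strings. It has 39.2% G and C and 1 CpG, against 63.3% and 7 for Hpgd, 77.5% and 17 for Ptger3, 63.3% and 9 for Ptger4 and medians of 54.2% and 3 over all promoters. Of the 9 members with a promoter entry, 6 held a GC box.

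Ptger3 and Ptger4 carried nearly all EP receptor transcripts. Ptger4, the cAMP-raising receptor, was at 7.92, 11.7, 9.18 and 9.73 TPM in controls 1 to 4 and at 9.54, 8.87, 6.31 and 5.16 TPM in Siglec-XII 1 to 4. Siglec-XII 1 and 2 lay inside the control range and Siglec-XII 3 and 4 were the 2 lowest of the 8 samples. The mean was 9.63 ± 1.57 TPM in controls and 7.47 ± 2.08 TPM in Siglec-XII, a log2 difference of -0.35 (SE 0.199, 95% interval -0.8 to 0.1, limma adjusted p = 0.515). Without Siglec-XII 1 it was -0.47, which passed an unadjusted P of 0.05, as 18.0% of all genes then did, but not the adjustment (limma adjusted p = 0.275). With median centring it was -0.14, and after quantile normalization it was -0.12. Without Siglec-XII 4 it was -0.21. Without Siglec-XII 3 and 4 it was -0.05 (limma adjusted p = 0.992). Ptger4 overlaps Ttc33 on the opposite strand and shares 14.4% of its 31-base windows with the pseudogene Gm15937, which was listed at a mean of 0.012 TPM.

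Ptger3, the receptor that mostly lowers cAMP, differed with the opposite sign. Its values were 4.86, 7.15, 8.51 and 8.35 TPM in controls and 6.64, 9.01, 9.57 and 11.5 TPM in Siglec-XII. Siglec-XII 2, 3 and 4 lay above every control, and Siglec-XII 1 lay inside the control range. The mean was 7.22 ± 1.69 TPM in controls and 9.18 ± 2.0 TPM in Siglec-XII, a log2 difference of 0.31 (SE 0.205, 95% interval -0.15 to 0.78, limma adjusted p = 0.531). Relative to the median gene the difference was 0.46. With no filter and each sample centred on its median, an alternative added later, it was 0.53 and passed an unadjusted P of 0.05, as 7.38% of all genes then did (limma adjusted p = 0.393). Without Siglec-XII 1 the groups no longer overlapped (0.44, limma adjusted p = 0.28), which then held for 12.5% of all genes. The difference was 0.16 without control 1 and 0.12 without Siglec-XII 3 and 4 (limma adjusted p = 0.991).

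Read as shares of all EP receptor transcripts, Ptger3 held 37.3%, 37.4%, 47.0% and 45.6% in controls 1 to 4 and 40.2%, 49.5%, 59.2% and 67.9% in Siglec-XII 1 to 4. Ptger4 held 60.8%, 61.3%, 50.7% and 53.1% in controls and 57.7%, 48.7%, 39.0% and 30.5% in Siglec-XII. The ratio of Ptger4 to Ptger3 was therefore 1.08 to 1.64 in controls and 1.44, 0.985, 0.659 and 0.449 in Siglec-XII, with 1 Siglec-XII sample inside the control range and 3 under it. The summed receptor level was 17.1 ± 2.78 TPM in controls and 16.9 ± 0.881 TPM in Siglec-XII. The share of Ptger3 was 12.4 percentage points higher in Siglec-XII over all samples and 3.02 points higher without Siglec-XII 3 and 4. It was 7.79 points higher without Siglec-XII 4 alone and 17.0 points higher without Siglec-XII 1, and that of Ptger4 was -12.5 points over all samples and -7.97 points without Siglec-XII 4. No test was made of these shares.

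**Figure D2:**
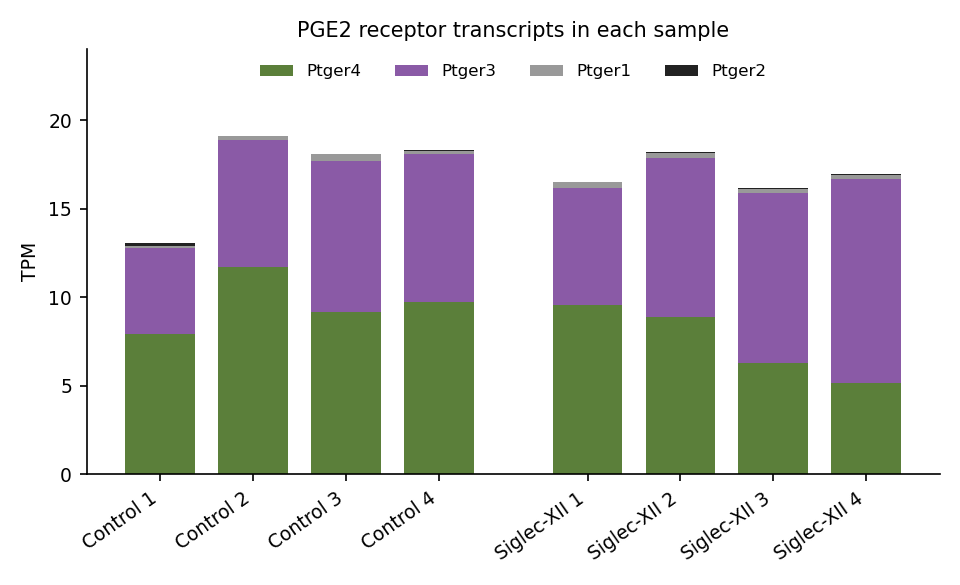
Level of the 4 EP receptors in each sample, in TPM, stacked by gene (1 bar per sample). Ptger4 (lowest segment) is at 9.54 TPM in Siglec-XII 1 and at 5.16 TPM in Siglec-XII 4, and the summed height lies within 16.2 to 18.2 TPM in Siglec-XII samples.

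The remaining receptors were close to 0. Ptger2, the other cAMP-raising receptor, was at 0.116, 0.0193, 0.0301 and 0.0647 TPM in controls and at 0.0287, 0.0407, 0.0696 and 0.0297 TPM in Siglec-XII, with every Siglec-XII value inside the control range. Ptger1 was at 0.14, 0.23, 0.394 and 0.17 TPM in controls and at 0.315, 0.281, 0.23 and 0.249 TPM in Siglec-XII, again all inside the control range. The value of Ptger1 is uncertain, since part of its transcript sequence is not unique in the annotation. With no filter, the log2 difference was 0.04 (SE 0.0668, limma adjusted p = 0.783) for Ptger1 and -0.02 (SE 0.0312, limma adjusted p = 0.786) for Ptger2. Centring on the sample median, which moves every gene alike, took the latter to 0.19. Without Siglec-XII 3 and 4 the differences of the means were 0.08 and -0.03.

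Across the set, 7 of the 10 genes passed the filter and none of them was called at an adjusted p of 0.05 or less in the limma fit across all genes. Of all 13164 genes tested, 5 were called (0.038%), a count that was 3 without Siglec-XII 1, 2 without Siglec-XII 2 and 3 without Siglec-XII 4. At an unadjusted P of 0.05 or less, 0 of the 7 passed, against 8.87% of all genes tested, and 0 of the 7 had groups that did not overlap, against 5.11%. Leaving out 1 sample raised the first of these counts to 1 without Siglec-XII 1 (Ptger4) and the second to 1 without control 1 (Ptges2) or Siglec-XII 1 (Ptger3). These gains are near those of all genes, of which 18.0% passed that P without Siglec-XII 1, and 12.4% and 12.5% did not overlap without control 1 and without Siglec-XII 1. The smallest adjusted p-value among the 7 was 0.515, for Ptger4 and for Ptges3. Their median difference was 0.01, with 4 above 0 and 3 below, beside -0.15 over all genes tested (0.00313 without Siglec-XII 3 and 4). Less the shift of the median gene, the differences were 0.46 for Ptger3, 0.22 for Hpgd, 0.21 for Ptges2, 0.17 for Slco2a1, -0.03 for Ptges3, -0.16 for Ptges and -0.2 for Ptger4. The scale of all these differences, log2(TPM + 1), makes the change of a low gene look smaller than it is. Without Siglec-XII 3 and 4, the 7 differences ran from -0.16 (Ptges) to 0.25 (Slco2a1), with limma adjusted p-values of 0.991 to 0.992.

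**Figure D3:**
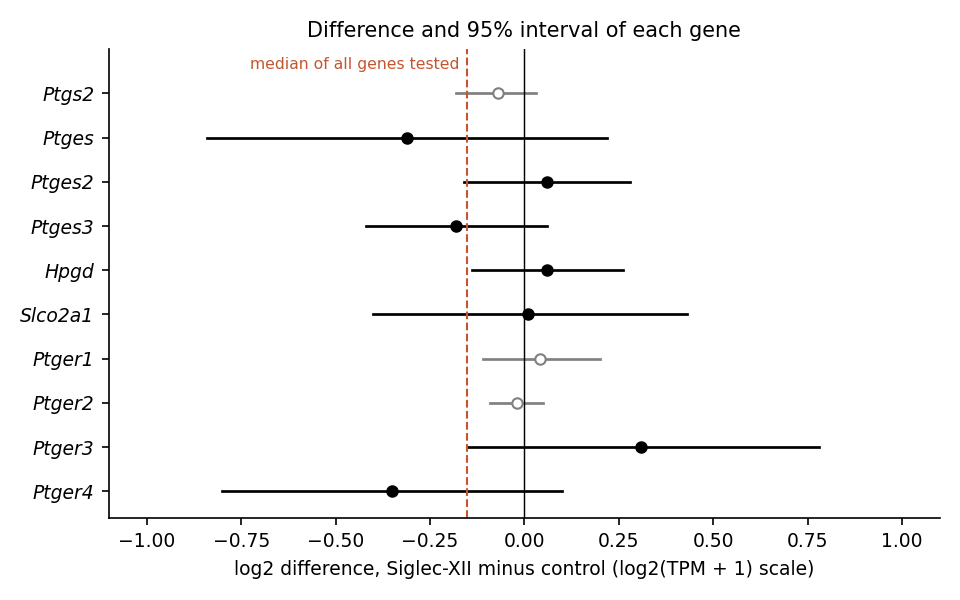
Log2 difference of each PGE2 gene, Siglec-XII minus control on the log2(TPM + 1) scale, with its 95% interval (filled points, genes past the filter; open points, genes under it, fitted with no filter). Every interval crosses 0, and Ptger3 (0.31) and Ptger4 (-0.35) lie farthest from it, on opposite sides of the dashed line at the median gene (-0.15).

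The position of a sample on the first principal component went with several of these genes. Over the 8 samples, whose position comes from all genes tested, Pearson's r was -0.85 for Ptger4, -0.84 for Ptges3, -0.69 for Ptgs2 and -0.56 for Ptges, and 0.72 for Ptger3 and 0.47 for Hpgd. It was -0.39 for Slco2a1, -0.24 for Ptger2, 0.21 for Ptger1 and 0.25 for Ptges2. How many of all genes tested reach such values was not counted, so they are not a trait of this set. Among the genes themselves, r was farthest from 0 between Ptges3 and Ptger3 (-0.88, n = 8). Other pairs included Ptgs2 with Ptges2 (-0.76), Ptgs2 with Ptges (0.72) and Ptger3 with Ptger4 (-0.51). These values describe samples in which 2 libraries stand far from the others. Whether the component had a part in the group differences was not tested.

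Other genes of the pathway were read from lists of 58 genes, of which 42 passed the filter. None was called after adjustment, 2 passed at an unadjusted P of 0.05 or less (Slco2b1 and Alox12, 4.76%, against 8.87% of all genes) and 1 had groups that did not overlap (2.38%, against 5.11%). Their median difference was -0.14, with 8 above 0 and 34 below, beside a median of -0.15 and 21.9% above 0 over all genes tested.

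Among 10 genes that release arachidonic acid, 8 passed the filter, and none differed at an unadjusted P of 0.05 or less (median difference -0.01, 0.2 with median centring and 0.05 without Siglec-XII 3 and 4). The secreted phospholipases Pla2g10 (129 ± 13.2 TPM in controls, 133 ± 9.2 TPM in Siglec-XII) and Pla2g5 (35.5 ± 4.58 and 34.9 ± 2.78 TPM) led the list. Of 7 genes for cyclooxygenase 1 and the synthases of other prostanoids, 6 passed the filter and none reached that P (median difference -0.13, 0.08 with median centring and -0.17 without Siglec-XII 3 and 4). Akr1b3, an aldose reductase with PGF synthase activity, had 121 ± 7.63 TPM in controls and 105 ± 9.2 TPM in Siglec-XII (log2 difference -0.21, limma adjusted p = 0.515), and Fam213b, a PGF2 synthase, had 52.5 ± 12.1 and 47.0 ± 4.16 TPM. The PGD2 synthase Ptgds was under the filter.

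Of 6 genes for export and further breakdown, 5 passed the filter (median difference -0.11, 0.1 with median centring and -0.01 without Siglec-XII 3 and 4). Slco2b1, an organic anion transporter, was at 2.13 to 2.78 TPM in controls and 1.3 to 2.1 TPM in Siglec-XII, so that the groups did not overlap (log2 difference -0.37, SE 0.149, limma adjusted p = 0.515). Without Siglec-XII 3 and 4 it was -0.17. The carbonyl reductase Cbr1, which acts on PGE2, was abundant and close between groups (365 ± 37.2 and 367 ± 7.5 TPM), as was the prostaglandin reductase Ptgr2 (38.7 ± 4.01 and 37.1 ± 2.68 TPM). All 5 receptors of the other prostanoids were under the filter, with a summed level of 0.174 to 0.298 TPM in controls and 0.134 to 0.273 TPM in Siglec-XII. Tbxa2r, the thromboxane receptor (0.149 ± 0.0124 and 0.141 ± 0.0871 TPM), and Ptgfr, the PGF2 receptor (0.0371 ± 0.0234 and 0.0337 ± 0.0316 TPM), were the highest of them.

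Downstream of the receptors, 17 of 21 genes for G proteins, adenylyl cyclases, phosphodiesterases and protein kinase A passed the filter. None reached an unadjusted P of 0.05, and their differences ran from -0.39 to -0.05, with a median of -0.22, which was -0.01 with median centring and 0.11 without Siglec-XII 3 and 4. Their summed level was 1250 to 1310 TPM in Siglec-XII 1 and 2, and 818 to 978 TPM in Siglec-XII 3 and 4, beside 1070 to 1310 TPM in controls. Gnas, the stimulatory G protein through which EP2 and EP4 act, had 522 ± 39.9 and 468 ± 90.3 TPM, and Gnai2, an inhibitory one of the kind EP3 uses, had 174 ± 14.7 and 156 ± 26.1 TPM. In the lipoxygenase branch, which competes for arachidonic acid, 6 of 9 genes passed the filter, with a median difference of -0.21. This median was 0.0 with median centring, 0.11 with no filter and median centring, -0.07 without Siglec-XII 4 and -0.12 without Siglec-XII 3 and 4. Alox12, the platelet-type lipoxygenase, was at 5.86 ± 4.64 TPM in controls and 1.45 ± 0.528 TPM in Siglec-XII (log2 difference -1.2, SE 0.495, limma adjusted p = 0.515), with groups that overlapped, and its difference was -0.97 without Siglec-XII 3 and 4. Lta4h, the leukotriene A4 hydrolase, had 79.7 ± 6.33 and 65.8 ± 18.7 TPM.

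**Figure D4:**
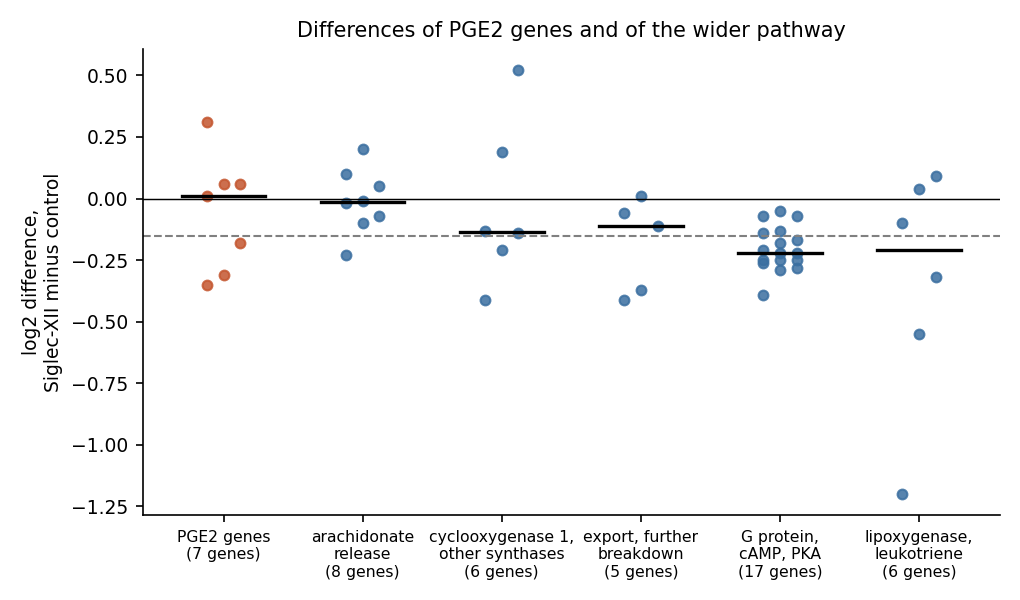
Log2 difference, Siglec-XII minus control on the log2(TPM + 1) scale, of each gene past the filter (1 point per gene, bar at the list median, dashed line at the median of all genes tested, -0.15). The 7 PGE2 genes have a median of 0.01, and the G protein, cAMP and PKA genes all lie below 0, with a median of -0.22 that is -0.01 with median centring.

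Other cell types of the colon wall, which express PGE2 genes as well, were read from marker lists. The smooth muscle list had 3 of 6 genes lower at an unadjusted P of 0.05 or less, and its summed level was 623 to 1000 TPM in controls, 563 to 638 TPM in Siglec-XII 1 and 2 and 303 to 651 TPM in Siglec-XII 3 and 4. In the neutrophil list, both genes past the filter (of 4) were lower at that P, with a summed level of 23.4 to 132 TPM in controls and 2.27 to 8.67 TPM in Siglec-XII. In the macrophage list, 1 of the 3 genes past the filter was lower at that P (summed level 7.48 to 22.5 and 5.44 to 8.97 TPM). In the endothelial list, the only gene past the filter (of 5) was lower at that P too. The summed level of that list was 2.5 to 4.67 TPM in controls and 1.79 to 2.41 TPM in Siglec-XII. Beside these counts, 8.87% of all genes tested passed that P, 157 higher and 1010 lower in Siglec-XII. No marker was called after adjustment, and none was at 0 in all samples. In the other lists no gene past the filter reached that P, but few were tested in some of them. These were 8 of 8 genes for epithelium, 5 of 6 for fibroblasts, 2 of 6 for mast cells and 2 of 4 for adipocytes. For tuft cells and for enteric neurons and glia it was 1 of 6 each. Summed levels in controls and Siglec-XII were 2.51 to 5.5 and 2.55 to 3.27 TPM for tuft cells and 12.7 to 40.4 and 16.7 to 73.9 TPM for fibroblasts. They were 8.57 to 17.2 and 10.5 to 12.1 TPM for mast cells and 4.6 to 9.89 and 3.83 to 4.99 TPM for enteric neurons and glia. For adipocytes they were 0.623 to 5.84 and 1.88 to 4.02 TPM. All 6 T and B cell markers were under the filter (summed level 1.76 to 5.8 TPM in controls and 1.32 to 2.47 TPM in Siglec-XII). The part of these cell types in the values of Ptger4, Ptger3, Ptges or Ptgs1 was not tested.

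Genes whose pattern over the 8 samples was most like that of a PGE2 gene were ranked by Pearson's r of log2(TPM + 1). For Ptger4 these were Usp19 (0.997), Setd2 (0.996) and Osbpl9 (0.995), and for Slco2a1 they were Cul1 (0.962), Gm2174 (0.961) and Max (0.952). For Ptgs2, which lay close to 0 in every sample, they were Cdr2 (0.969), Ttf1 (0.965) and Armcx5 (0.964). Hpgd, which hardly varied, had lower values with Gm22753 (0.875), Gm27985 (0.867) and Gcat (0.852). The mean levels of these matches lay near the filter, at 1.09, 1.42 and 0.998 TPM. With 8 samples and 13164 genes, r values of this size are a description only.

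In GENCODE M21 on GRCm38, the 10 genes are spread over 8 chromosomes. Ptgs2 (ENSMUSG00000032487) lies at chr1:150100031-150108227, Ptges (ENSMUSG00000050737) at chr2:30889471-30929863, Ptges2 (ENSMUSG00000026820) at chr2:32395896-32405772 and Ptges3 (ENSMUSG00000071072) at chr10:128058954-128077272. Hpgd (ENSMUSG00000031613) lies at chr8:56294585-56321043 and Slco2a1 (ENSMUSG00000032548) at chr9:102988712-103096002. The receptors lie at chr8:83666678-83672753 (Ptger1, ENSMUSG00000019464), chr14:44988195-45003820 (Ptger2, ENSMUSG00000037759), chr3:157566892-157645888 (Ptger3, ENSMUSG00000040016) and chr15:5206661-5244187 (Ptger4, ENSMUSG00000039942). Ptges and Ptger4 are on the minus strand and the others on the plus strand.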

How the data were processed

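Distal colon RNA of 4 control and 4 samples called Siglec-XII was analysed; samples after AOM/DSS and cell lines were not analysed here. The authors quantified reads with kallisto (0.45.0, with GRCm38, per the labels) and deposited log2(TPM + 1) per gene. The methods name a human reference, but 98.3% of the deposited gene identifiers belong to mouse GENCODE M21. No adjustment between samples was found in the values: TPM sums to 1000000 in each. Depth per sample is not held by TPM. In a sample, 12748 to 13715 genes reached 1 TPM.

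The 10 members and all lists were chosen with earlier results of these data known, so their values are a description as much as a test. Where a symbol was repeated (718 further rows), the row of highest mean stood for it. Genes that reached 1 TPM in 4 or more samples were fitted with limma 3.58.1 (lmFit, eBayes with trend) in R 4.3.3, with Benjamini-Hochberg adjustment over all 13164 genes. On simulated data, the fit called 10.4% of genes changed by 0.5 on the log2 scale, 68.7% of those changed by 1.0 and 98.5% of those changed by 2.0. In that simulation each gene varied independently around its own mean, with no shift shared by a sample. It had 128 genes called, against 5 in the data, so these shares may be higher than the fit reaches here. Most changes of 0.5 were missed even there, and no PGE2 gene past the filter differed by that much in the main fit. Besides the members, the text names Ptgs1, the 2 most abundant genes of each pathway list, any with an unadjusted P of 0.05 or less or groups that did not overlap, and the 3 genes most like Ptgs2, Hpgd, Slco2a1 and Ptger4; Krt8 and Car1 were named after their values were seen. The alternatives were a filter at TPM 5 or none, a pseudocount of 0.1, quantile normalization, median centring, array weights, a replicate block, leaving out Siglec-XII 3 and 4, and leaving out each sample. Windows of 31 bases shared between transcripts and motifs were counted in Python 3.11.15, with promoters from the RefSeq table of GRCm38.p6, in which 9 members matched. No 2 samples were the same (highest correlation 0.987). An item of sequence overlap is not reported here.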

Additional observations from a re-analysis of the deposited data

Results flagged for a closer look

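Among 48 groups of 4 samples (24 genes, both groups), 1 had a sample far from the other 3. In Siglec-XII, Fam213b was at 53.1 TPM in sample 2, with the next at 45.5 TPM (5.76 and 5.54 on the log2 scale), and this gap was 0.836 of the whole range of the group, above Dixon's critical value for 4 samples. Chance gives about 1 such gap in 20 groups, or 2.4 here. None of the 10 PGE2 genes showed one.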

How the results depend on the processing

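With 1 sample left out, the difference of Slco2a1 ran from -0.1 to 0.17. No PGE2 gene was called under any of the alternatives, and 113 of 121 differences of single PGE2 genes kept their sign and their side of the threshold. The other 8 changed sign: Ptges3 to 0.03 with median centring, with or without the filter, Ptgs2 to 0.14 and Ptger2 to 0.19 with no filter and median centring (added after the data were seen), and Slco2a1 to -0.07, -0.01, -0.02 and -0.1 without control 1, control 3, Siglec-XII 1 and Siglec-XII 2. Median centring moved all genes by the same amount, so the changes of sign under it are not particular to these genes. The count of all genes called was 5, and it was 3 with a filter at TPM 5, 3 with no filter, 18 with array weights, 2 without Siglec-XII 3 and 4 and 2 to 6 with 1 sample left out (3, 2 and 3 without Siglec-XII 1, 2 and 4), and the cause was not tested. The count of PGE2 genes at an unadjusted P of 0.05 or less was 0, and it was 1 with no filter and median centring (Ptger3) and 0 to 1 with 1 sample left out (Ptger4, without Siglec-XII 1, when 18.0% of all genes passed). The count of those whose groups did not overlap was 0, and 0 to 1 with 1 sample left out (Ptges2 without control 1, Ptger3 without Siglec-XII 1, when 12.4% and 12.5% of all genes did not overlap). Of all genes at that unadjusted P, 157 were higher and 1010 lower in Siglec-XII, against 704 and 408 after quantile normalization and 1137 and 285 with median centring, so the direction of small differences depends on the scaling. With the sample number as a replicate block, 4 genes were called and 0 PGE2 genes. Samples of the same number did not deviate together (r of -0.16, -0.2, 0.1 and 0), so the numbers were not taken to pair them. Over the alternatives the difference of Ptger4 ran from -0.47 to -0.05, that of Ptges from -0.42 to -0.08 and that of Ptger3 from 0.12 to 0.54. The unknown depth limits Ptgs2, Ptger1 and Ptger2 most.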
